A study of Mus musculus with 8 samples.

Results

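The miR-125 and miR-99/100 families are a pair of microRNA (miRNA) families that share 3 genomic clusters and are well known in haematopoietic stem cells. Members were all probe names of the array whose stem, after removal of the arm, copy number and form, was mmu-mir-125a, mmu-mir-125b, mmu-mir-99a, mmu-mir-99b or mmu-mir-100 (written without mmu, for mouse, from here on). These 5 stems, of 341 on the array, had 7 of the 433 names in the mature table and 4 of the 274 names in the precursor table. Each member name rested on 1 probe. The 7 mature names were miR-125a, miR-99a, miR-99b, miR-100, miR-125b-1, miR-125b-2 and miR-125b without a copy number, and the 4 precursor names were miR-99b and the same 3 versions of miR-125b.

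The RNA came from Lin-cKit+Sca1+ (LSK) bone marrow cells, in which stem cells and their first progeny are enriched, of 8 female C57BL/6 mice aged 10 weeks, with 1 array per mouse. Of these, 4 were Tsc1f/f,Mx1-Cre+ (Tsc1 cKO) and 4 were Tsc1f/f,Mx1-Cre- littermates (Ctrl), so the floxed allele was present in both groups. Mice of both genotypes were injected 7 times with 400 µg of pIpC at 2 mg/ml, which induces Cre through the interferon response, and LSK cells were isolated 10 days after the final dose. The Mx1 promoter answers to interferon in many cell types, so Cre is not limited to the sorted cells. Tsc1 restrains the growth kinase complex mTORC1, and the series title concerns mTORC1 and the making of miRNAs. The design text also mentions alleles for Raptor. Groups follow the genotype labels, where Tsc1 is the allele given, and no probe used here reads Tsc1.

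A miRNA is transcribed within a longer RNA, cut to a hairpin precursor by Drosha with DGCR8, and cut again by Dicer to the mature form, which guides Argonaute to target mRNAs mainly through its seed. In mice, miR-125a and miR-125b are enriched in haematopoietic stem cells and enlarge the stem cell pool when overexpressed, with the cell death gene Bak1 among the targets of miR-125a. miR-99a and miR-100 are known to target the mRNA of the kinase mTOR, the core of the complex that Tsc1 restrains. The 5 mature 5p sequences are shown, 5′ to 3′, because their seeds (bases 2 to 8, in capitals) split the members into 2 seed groups, and miR-351-5p because it carries the seed of one of them. Sequences are from RefSeq (GRCm38.p6), which held all 6 member genes.
miR-125b-5p: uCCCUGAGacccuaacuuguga
miR-125a-5p: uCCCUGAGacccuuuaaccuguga
miR-351-5p: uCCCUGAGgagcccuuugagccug
miR-99a-5p: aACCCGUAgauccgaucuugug
miR-100-5p: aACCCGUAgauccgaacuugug
miR-99b-5p: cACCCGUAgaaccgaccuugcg

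miR-125b-5p is encoded by both Mir125b-1 and Mir125b-2 with the same letters, so the mature probe names for its copies share 1 target and are not separate miRNAs. miR-125a-5p shares the first 13 bases with miR-125b-5p and then diverges. Counted from the 5′ end, miR-99a-5p differs from miR-100-5p by U16A alone, and from miR-99b-5p by A1C, U11A, U16C and U21C. Probes for such close relatives may read each other's targets, and probe sequences were not used here. The genes lie in 3 clusters, each with a let-7 gene between the members. Mir100, Mirlet7a-2 and Mir125b-1 lie over 50.6 kb of chromosome 9 within the long non-coding gene Mir100hg. Mir99a, Mirlet7c-1 and Mir125b-2 lie over 47.4 kb of chromosome 16. Mir99b, Mirlet7e and Mir125a lie within 683 bases of chromosome 17, inside the protein-coding gene Spaca6. The hairpin of Mir125b-1 (chr9:41581926-41582002, plus strand), with the mature sequence in capitals, is shown because it was the member precursor that stood clear of background.
Mir125b-1 hairpin: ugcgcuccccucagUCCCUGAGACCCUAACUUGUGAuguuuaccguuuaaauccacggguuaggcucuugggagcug

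Values are the deposited linear intensities. The background of an array was taken as the peak of the density of log2 intensities in the mature and precursor tables together, and lay between 24038 (Tsc1 cKO 4) and 33328 (Tsc1 cKO 2). A probe is called bright where it exceeded this background by over 1 log2 unit, and a name where its mean over the 8 arrays did. Mice 1 and 2 of both genotypes had brighter arrays than mice 3 and 4, so differences within each set are given beside the pooled ones. Tsc1 cKO 4 stood apart with 74 bright mature names, against 93 to 112 on the other arrays. Labels give scanner 4000B for all arrays except Tsc1 cKO 3 (4001B) and Tsc1 cKO 4 (4002B), so the last 2 scanner labels hold 1 array each.

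All 7 mature members had a negative log2 difference, Tsc1 cKO minus Ctrl, with a median of -0.96 against -0.04 over all 433 mature names. The differences ran from -1.40 for miR-125b-2 to -0.25 for miR-125a. limma called none of them at an adjusted p under 0.05, nor any other mature name, which is 0% of the table, and the lowest adjusted p of a member was 0.605, for miR-125b-1. At unadjusted p under 0.05 there were 4 members (miR-125b-1, miR-125b-2, miR-99a and miR-100) of 19 names in the table (4.39%), and names lower in Tsc1 cKO at that level made up 3.93% of all. A negative difference was found in 64.9% of mature names and one below -1 in 2.08%, the latter including 2 members, miR-125b-2 and miR-125b-1. These 2 names, which are also among the 4 above, share a mature target and are not separate miRNAs. None of the 7 mature members was bright over the 8 arrays, although miR-99b passed that level in the Ctrl mean, so the size of every difference below is uncertain. In bulk RNA, fewer cells of a type and less RNA per cell cannot be told apart.

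The mature probe of miR-125b-1 read 46353, 20483.5, 18532 and 19471.5 in Tsc1 cKO mice 1 to 4, against 62906, 85044.5, 49565.5 and 38472 in Ctrl mice 1 to 4. Of the Tsc1 cKO mice, only mouse 1 reached into the Ctrl range, above Ctrl 4, and the other 3 lay under their array's background level. The log2 difference was -1.22 (SE 0.35, 95% interval -2.003 to -0.44, adjusted p = 0.605 by limma), the third lowest of all mature names. It was -1.25 in mice 1-2 and -1.20 in mice 3-4, and ran from -1.54 (without Tsc1 cKO 1) to -1.03 (without Ctrl 2) when 1 mouse was left out.

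The probe of miR-125b-2 read 44067, 33873.5, 12974.5 and 8906 in Tsc1 cKO mice 1 to 4, against 66959.5, 71496.5, 42082 and 41284.5 in Ctrl mice 1 to 4. Tsc1 cKO 3 and 4 lay far under the other arrays, and Tsc1 cKO 1 exceeded Ctrl 3 and Ctrl 4, so the groups overlapped. Its log2 difference of -1.40 (SE 0.49, adjusted p = 0.690 by limma) was the lowest of the mature table. It was -0.84 in mice 1-2 and -1.96 in mice 3-4, and -0.9998 without Tsc1 cKO 4.

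For miR-125b without a copy number the intensities were 30961.5, 29310.5, 6513.5 and 26945.5 in Tsc1 cKO mice 1 to 4, against 52297.5, 70628.5, 39486.5 and 15613.5 in Ctrl mice 1 to 4. Tsc1 cKO 3 was the lowest array and Ctrl 4 the second lowest, so the spread within each group was wide. The log2 difference was -0.96 (SE 0.58, adjusted p = 1.00 by limma), and -0.42 without Tsc1 cKO 3. Over mice 1-2 it was -1.01 and over mice 3-4 -0.91.

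The copies were compared by the per-mouse log2 difference of their probes, since both encode 1 mature sequence. Between genotypes the difference of miR-125b-1 minus miR-125b-2 shifted by 0.17 for mature probes (exact permutation p = 0.686, 2-sided, n = 4 each, adjusted p = 0.686 over the 2 forms) and by -0.11 for precursor probes (exact permutation p = 0.229, adjusted p = 0.457). These tests could not decide whether the copies changed differently. The mature probes share 1 target. The miR-125b-2 precursor probe lay at background, with means over it of -0.08 log2 units in Tsc1 cKO and -0.06 in Ctrl. With n = 4 each, the smallest exact permutation p is 0.0286. In 1 form alone, that p would not pass after adjustment over the 2 forms. The mature shift was -0.41 in mice 1-2, 0.75 in mice 3-4 and -0.12 without Tsc1 cKO 4, and the precursor shift -0.01 in mice 1-2 and -0.22 in mice 3-4. The SD of this per-mouse difference was 0.78 in Tsc1 cKO and 0.20 in Ctrl for the mature probes, although they are named for the same mature RNA.

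**Figure D1:**
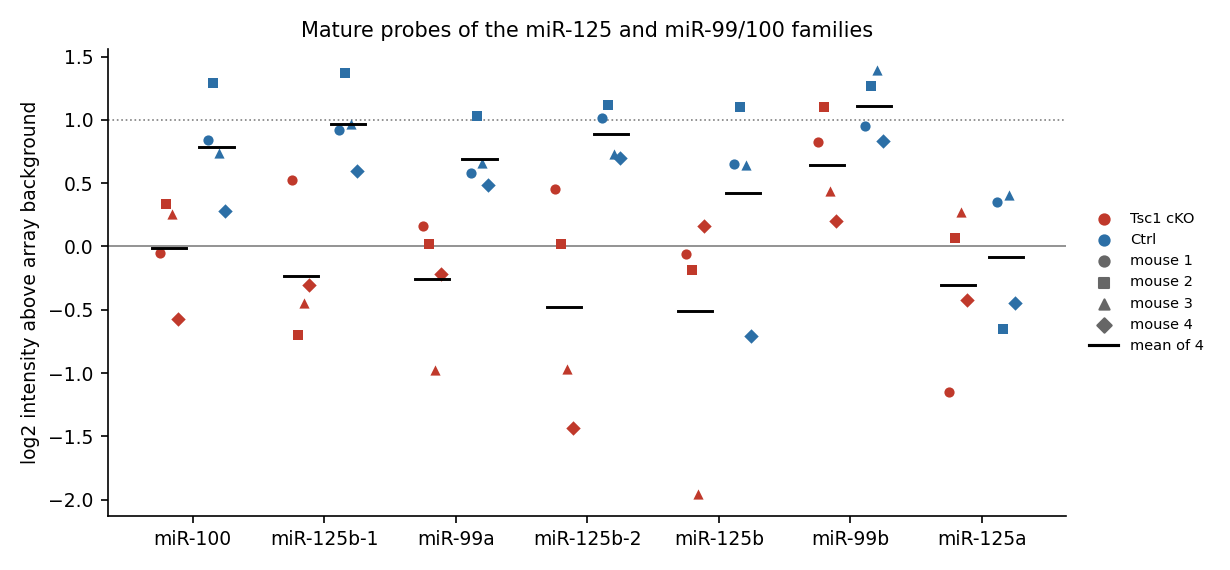
Log2 intensity above the background of each array (y axis) of the 7 mature member probes, for Tsc1 cKO (left of each pair) and Ctrl mice (n = 4 each). Black bars are means, the solid line is the background and the dotted line the bright level of 1; mouse numbers do not pair the groups. Ctrl means of miR-100, miR-125b-1, miR-99a and miR-125b-2 lie between 0.69 and 0.96, and Tsc1 cKO means between -0.48 and -0.01.

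miR-99a, the chromosome 16 neighbour of miR-125b-2, read 36048, 33753.5, 12843 and 20633.5 in Tsc1 cKO mice 1 to 4, against 49801, 67346, 40083 and 35703.5 in Ctrl mice 1 to 4. Only Tsc1 cKO 1 exceeded any Ctrl array, by a narrow margin over Ctrl 4. The log2 difference was -0.97 (SE 0.35, adjusted p = 0.690 by limma), -0.73 in mice 1-2 and -1.22 in mice 3-4.

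miR-100, which differs from miR-99a by a single base, read 31072, 42059, 30219.5 and 16140.5 in Tsc1 cKO mice 1 to 4, against 59480.5, 80653, 42246.5 and 30874 in Ctrl mice 1 to 4. Ctrl 4 lay within the Tsc1 cKO range and the other Ctrl mice lay above it. Its log2 difference was -0.82 (SE 0.36, adjusted p = 0.902 by limma), -0.94 in mice 1-2 and -0.71 in mice 3-4.

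The chromosome 17 members had the smallest differences. miR-99b read 57198.5, 71545.5, 34286.5 and 27673 in Tsc1 cKO mice 1 to 4, against 64358.5, 79079, 66382 and 45307.5 in Ctrl mice 1 to 4. Its means over background were 0.64 log2 units in Tsc1 cKO and 1.11 in Ctrl. The arrays of mice 1 and 2 overlapped between groups, while Tsc1 cKO 3 and 4 lay below every Ctrl mouse. The log2 difference was -0.49 (SE 0.32, adjusted p = 1.00 by limma), -0.16 in mice 1-2, -0.83 in mice 3-4 and -0.27 without Tsc1 cKO 4.

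miR-125a read 14555.5, 34929.5, 30615 and 17938.5 in Tsc1 cKO mice 1 to 4, against 42441, 20901, 33595 and 18744 in Ctrl mice 1 to 4. High and low arrays were found in both groups without order, and both group means lay under background (-0.31 and -0.08 log2 units in Tsc1 cKO and Ctrl). Its log2 difference was -0.25 (SE 0.36, 95% interval -1.05 to 0.55, adjusted p = 1.00 by limma), -0.40 in mice 1-2, -0.10 in mice 3-4 and -0.03 without Tsc1 cKO 1. On these arrays the probe of miR-125a, a miRNA known from stem cells, therefore gave no signal clear of background in either genotype.

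Differences in change between relatives of a seed group were tested over 6 pairs of mature probes, chosen with the values known. miR-125a minus miR-125b-2 shifted by 1.15 (exact permutation p = 0.171, adjusted p = 0.300, n = 4 each) and miR-125a minus miR-125b-1 by 0.97 (exact permutation p = 0.200, adjusted p = 0.300). In the other seed group, miR-99b minus miR-99a shifted by 0.48 (exact permutation p = 0.114, adjusted p = 0.300) and miR-100 minus miR-99a by 0.15 (exact permutation p = 0.771, adjusted p = 0.771). The remaining 2 pairs, miR-99b with miR-100 and miR-125a with miR-125b without a copy number, had shifts of 0.33 and 0.71 and adjusted p of 0.300 and 0.617 in the same exact permutation test. None of the 6 passed, and the smallest p that 4 against 4 mice allow is 0.0286 before adjustment. A single pair at that p would not pass after adjustment over the 6 pairs. These tests therefore could not decide whether a single pair differed. The chromosome 17 members were not shown to differ from their relatives, nor to change alike.

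The let-7 genes between the members, whose family restrains proliferation, were bright on 2 of the 3 clusters. Mature let-7a-2, between miR-100 and miR-125b-1, had a log2 difference of -1.01 (SE 0.41) and lay 2.84 and 3.82 log2 units above background in Tsc1 cKO and Ctrl. let-7c-1, between miR-99a and miR-125b-2, had -1.003 (SE 0.29) at 2.42 and 3.39 units above background in Tsc1 cKO and Ctrl, and its highest Tsc1 cKO mouse was under its lowest Ctrl mouse. let-7e, on chromosome 17, had -0.81 (SE 0.47). None of the 3 was called by limma, with adjusted p of 0.902, 0.605 and 1.00. The mature probes of let-7a-1 and let-7c-2, copies outside these clusters, were also lower in Tsc1 cKO. Their mean log2 intensities were 17.03 and 17.09 in Tsc1 cKO, against 18.04 and 18.12 in Ctrl. Probes named for copies of the same mature miRNA may share a target, as those of miR-125b do. These values therefore cannot tell the clusters from the copies outside them.

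**Figure D2:**
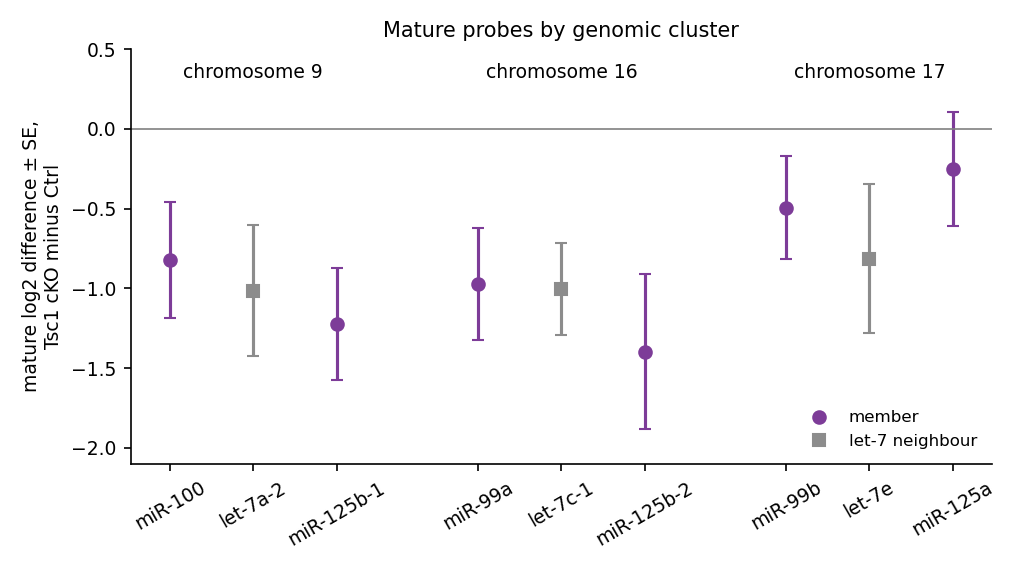
Mature log2 difference, Tsc1 cKO minus Ctrl (y axis, points with SE bars, n = 4 each), of members (circles) and their let-7 neighbours (squares), in the order of each cluster. The 3 probes named for chromosome 9 genes lie between -1.22 and -0.82 and those for chromosome 16 between -1.40 and -0.97. Those for chromosome 17 lie between -0.81 and -0.25. Mature miR-125b is encoded on both chromosomes 9 and 16, so its probes are not separate readings of these clusters. Copies of let-7a and let-7c outside these clusters are not shown.

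Set against the background of its own array, which takes out the brightness shared by a whole array, the ranges separated for 3 of the 7 mature members. On this scale miR-125b-1 ranged from -0.70 to 0.53 in Tsc1 cKO mice, against 0.59 to 1.37 in Ctrl mice. The range of miR-125b-2 was -1.43 to 0.45 in Tsc1 cKO mice, against 0.70 to 1.12 in Ctrl mice, and that of miR-99a -0.98 to 0.16 in Tsc1 cKO mice, against 0.49 to 1.03 in Ctrl mice. Among these 3 members, miR-125b-1 and miR-125b-2 share a mature target and are not separate miRNAs. Of all 433 mature names, 4.16% separated this way with Tsc1 cKO lower and 0.924% with Tsc1 cKO higher. On the intensities as deposited 0 of the 7 members did, and 0.924% of all names separated with Tsc1 cKO lower. The log2 differences on the background scale were -1.20 (SE 0.29) for miR-125b-1, -1.37 (SE 0.41) for miR-125b-2 and -0.95 (SE 0.26) for miR-99a, each with adjusted p = 0.539 by limma.

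Precursor probes were compared to see whether their signal moved with that of the mature forms. Total RNA was labelled with a random octamer, so these probes may also read the longer RNA that holds the hairpin. Which of the 2 gave the signal was not tested. The 4 precursor members had a median log2 difference of 0.08, against -0.03 over all 274 precursor names, with 2 of 4 negative against 59.1% in the table. limma called 0 of the 274 names, members included, at an adjusted p under 0.05 (0%), and 7 names (2.55%), no member among them and all lower in Tsc1 cKO, had an unadjusted p under 0.05. No precursor member had a log2 difference below -1, against 0.73% of names. None had groups that did not overlap, against 1.09% of names lower in Tsc1 cKO as deposited, and 1.46% lower and 0.73% higher over the array background.

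The precursor probe of miR-125b-1 was bright on all 8 arrays, as no other member probe of either form was. Its intensity was 131485, 121757.5, 101963 and 88662.5 in Tsc1 cKO mice 1 to 4, against 125301.5, 152565.5, 96200.5 and 121564.5 in Ctrl mice 1 to 4. The ranges overlapped, with Tsc1 cKO 4 below every Ctrl mouse and Ctrl 2 above every Tsc1 cKO mouse, and the means over background were 1.95 in Tsc1 cKO and 2.08 in Ctrl. The log2 difference was -0.16 (SE 0.21, 95% interval -0.62 to 0.31, adjusted p = 0.999 by limma), -0.13 in mice 1-2 and -0.19 in mice 3-4. It ran from -0.27 (without Ctrl 3) to -0.05 (without Ctrl 2) when 1 mouse was left out.

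The other 3 precursor probes lay at background. miR-125b-2 read 23505.5 to 30301.5 in Tsc1 cKO against 23222.5 to 32458 in Ctrl mice, with a log2 difference of -0.04 (SE 0.19, 95% interval -0.47 to 0.38), -0.12 in mice 1-2 and 0.03 in mice 3-4. miR-125b without a copy number read 23228 to 32383 in Tsc1 cKO against 18041.5 to 31811.5 in Ctrl mice, with a log2 difference of 0.20 (SE 0.22) that was 0.43 in mice 1-2, -0.03 in mice 3-4 and 0.06 without Ctrl 1. Neither value says much on a precursor that the probe did not show above background. The miR-99b precursor read 36949, 36220, 32592 and 27535.5 in Tsc1 cKO mice 1 to 4, against 36423, 36480, 28616 and 6259 in Ctrl mice 1 to 4. Its log2 difference of 0.58 (SE 0.48) was set by Ctrl 4, far under every other array, and was 0.01 in mice 1-2, 1.16 in mice 3-4 and -0.02 without that mouse. Neither miR-125a, miR-99a nor miR-100 had a name in the precursor table used here.

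**Figure D3:**
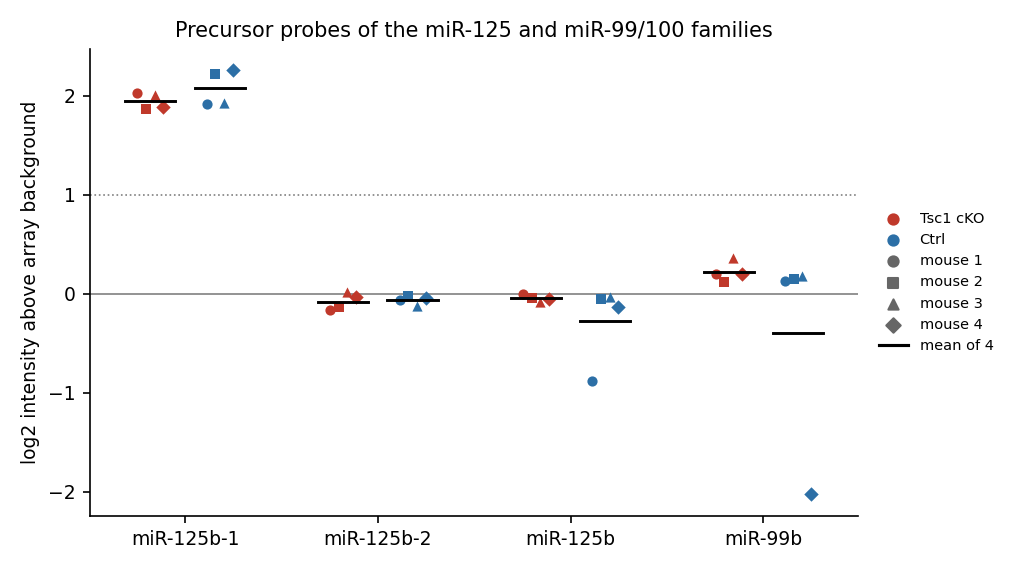
Log2 intensity above the background of each array (y axis) of the 4 precursor member probes, for Tsc1 cKO (left of each pair) and Ctrl mice (n = 4 each); bars are means, and the solid and dotted lines are the background and the bright level. miR-125b-1 lies between 1.87 and 2.25 on all arrays, while the other 3 probes lie near 0 apart from Ctrl 1 for miR-125b (-0.88) and Ctrl 4 for miR-99b (-2.03).

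How the 2 forms stood to each other was tested as the per-mouse difference of mature minus precursor log2 intensity, over 263 names found in both tables. All 4 matched members had log2 differences between genotypes below -1, with a median of -1.12, where 3.8% of all matched names did, 52.9% were below 0 and the median over all was -0.02. Counted from the lowest, they had ranks 2 (miR-125b-2), 4 (miR-125b without a copy number), 6 (miR-99b) and 7 (miR-125b-1). Among them only miR-125b-1 had a precursor probe clear of background, so the other values say little on the balance of the forms. The mature probe of miR-125b-1 was not bright, so its value is limited as well. Of the 4 members, all but miR-99b are names of the same miRNA, miR-125b. limma called 0 of the 263 names (0%) at an adjusted p under 0.05, and 2 members were among the 17 names (6.46%) at unadjusted p under 0.05, where names lower in Tsc1 cKO made up 5.32% of the table.

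For miR-125b-1, whose hairpin is printed above, the mature minus precursor value was -1.50, -2.57, -2.46 and -2.19 in Tsc1 cKO mice 1 to 4, against -0.99, -0.84, -0.96 and -1.66 in Ctrl mice 1 to 4. Tsc1 cKO 1 lay just above Ctrl 4, and the other 3 Tsc1 cKO mice lay below every Ctrl mouse. The shift of -1.07 (SE 0.28, 95% interval -1.72 to -0.41, adjusted p = 0.327 by limma) was -1.12 in mice 1-2 and -1.02 in mice 3-4, and ran from -1.29 (without Tsc1 cKO 1) to -0.94 (without Tsc1 cKO 2). It is the one matched member whose precursor stood above background. Its mature probe lay at -0.23 log2 units over background in Tsc1 cKO and 0.96 in Ctrl. That probe shares its target with miR-125b-2, so the mature signal may come from both genes and the shift cannot be assigned to Mir125b-1.

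For miR-125b-2 the mature minus precursor value was 0.62, 0.16, -0.98 and -1.40 in Tsc1 cKO mice 1 to 4, against 1.08, 1.14, 0.86 and 0.74 in Ctrl mice 1 to 4. The groups did not overlap, as for 3.04% of matched names with Tsc1 cKO lower and 1.9% with Tsc1 cKO higher, and the shift was -1.35 (SE 0.44, adjusted p = 0.341 by limma), -0.72 in mice 1-2 and -1.99 in mice 3-4. For miR-125b without a copy number the shift was -1.16 (SE 0.59, adjusted p = 0.660), -1.44 in mice 1-2, -0.88 in mice 3-4 and -0.69 without Tsc1 cKO 3. The shift of miR-99b, -1.08 (SE 0.46, adjusted p = 0.660), came from a mature difference of -0.49 and a precursor difference of 0.58, was -0.63 without Ctrl 4, whose precursor value was low, and -0.16 in mice 1-2 against -1.99 in mice 3-4.

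**Figure D4:**
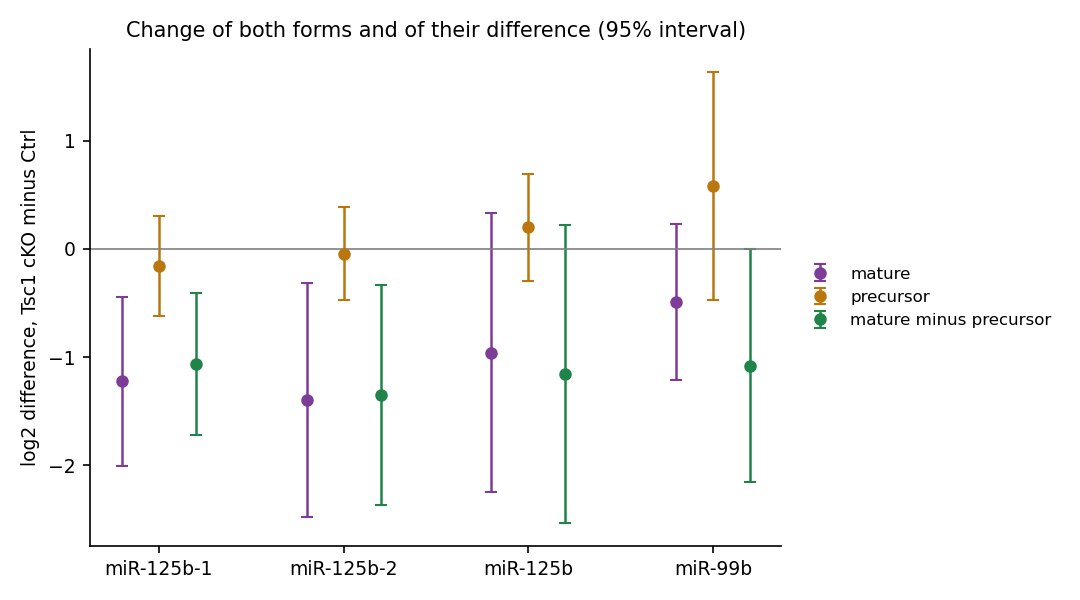
Log2 difference, Tsc1 cKO minus Ctrl (y axis, points with 95% intervals from limma, n = 4 each), of the mature probe, the precursor probe and the mature minus precursor value of the 4 matched members. For miR-125b-1 the points are at -1.22, -0.16 and -1.07, and the precursor point of miR-99b, at 0.58 with the widest precursor interval, is -0.02 without Ctrl 4.

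The other mature names were ranked by how close their values over the 8 arrays ran to the members. Those whose log2 pattern over the 8 arrays, after subtraction of the array median, lay closest to the mean member pattern were miR-222, miR-130a, miR-196a-2, let-7b and miR-150, with root mean square differences of 0.25 to 0.29 log2 units against a median of 0.51 over the 108 names compared, those with a group mean above the bright level. Among the members, which all enter that mean, miR-99a lay at 0.22, miR-99b at 0.26, miR-100 at 0.29, miR-125b-1 at 0.37 and miR-125b-2 at 0.47. miR-125b without a copy number, at 0.59, and miR-125a, at 0.69, lay further from it than the median compared name. miR-130a, a miRNA of stem and progenitor cells, had a log2 difference of -0.93 (SE 0.32, adjusted p = 0.690 by limma), and miR-150, which regulates lymphoid maturation, one of -0.85 (SE 0.26, adjusted p = 0.605). For miR-222 it was -0.61 (SE 0.36), for miR-196a-2 -0.66 (SE 0.29) and for let-7b -0.83 (SE 0.39), none of them called. These names were picked for running with a pattern that is lower in Tsc1 cKO, so their negative differences follow from that choice.

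Other miRNAs known to be enriched in stem cells had 10 mature names for 7 of the 9 stems looked for. Of these names 8 had a negative log2 difference, against 64.9% of all mature names, with a median of -0.52. limma called 0 of them, and 1 name, miR-130a, had an unadjusted p under 0.05, against 4.39% of all mature names. The lowest was miR-126*-5p, at -1.04 (SE 0.50), followed by miR-130a, while miR-155 had 0.01 (SE 0.46) and miR-542-3p 0.01 (SE 0.22). The other names of miR-126 were miR-126-5p, at -0.83 (SE 0.44), and miR-126-3p, at -0.17 (SE 0.24). Both 5p names are of the same arm, so the counts hold that arm more than once. The 3p probe lay near background, at 0.13 log2 units in Tsc1 cKO and 0.28 in Ctrl. miR-351, which carries the seed of the miR-125 group, had -0.31 (SE 0.39) and lay 0.11 and 0.39 log2 units above background in Tsc1 cKO and Ctrl. The miR-10 family is a relative of miR-99/100 with a shifted seed, shown by the run of 11 bases, in capitals, that miR-10a-5p shares with miR-100-5p.
miR-10a-5p: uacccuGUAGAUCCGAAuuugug

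All 3 mature miR-10 names had negative log2 differences, from -0.60 (SE 0.46) for miR-10a without a copy number to -0.19 (SE 0.42) for miR-10b, and 0 were called by limma or had an unadjusted p under 0.05.

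Marker miRNAs of other cells were read on the same arrays, and 0 of their mature names were called by limma at an adjusted p under 0.05, with miR-486 and miR-150 at an unadjusted p under 0.05. Negative log2 differences were found for 1 of 3 erythroid, 3 of 3 myeloid, 3 of 6 lymphoid, 4 of 5 megakaryocyte, 7 of 11 stromal or endothelial and 16 of 21 non-haematopoietic names. The 3 names of miR-126, both names of its 5p arm included, stand in the stem cell, megakaryocyte and stromal or endothelial lists alike. miR-155 stands in the stem cell and lymphoid lists. The 3 erythroid names had no mean above the bright level over the 8 arrays, and their summed intensity was 81863.5 to 216891 in Tsc1 cKO against 62939 to 120815 in Ctrl mice. Among them miR-486 had a log2 difference of 1.35 (SE 0.57, adjusted p = 0.902 by limma), at 1.18 log2 units over background in Tsc1 cKO and -0.20 in Ctrl, while miR-451 stood at -0.31 in Tsc1 cKO and -0.06 in Ctrl. The 3 myeloid names, miR-223 included, summed to 314598.5 to 2230329.5 in Tsc1 cKO against 704619.5 to 1823852.5 in Ctrl mice. The 6 lymphoid names summed to 266645 to 711867 in Tsc1 cKO against 365783 to 886521 in Ctrl mice, and the 5 megakaryocyte names to 104379 to 278933 in Tsc1 cKO against 194825 to 336784 in Ctrl mice. The 11 stromal or endothelial names, 1 of them bright, summed to 238510 to 456407 in Tsc1 cKO against 330058 to 505387 in Ctrl mice. Of 21 non-haematopoietic names 1, miR-375, was bright, and they summed to 560207 to 769049 in Tsc1 cKO against 605856 to 809013 in Ctrl mice. Each sum includes the array background of every probe, so sums over mostly dim names reflect array background more than marker content. The part of these markers in the member differences was not tested.

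The scanner labels 4001B and 4002B count up from 4000B over Tsc1 cKO 3 and 4 and may be a labelling slip, so whether more than 1 scanner was used is not known. Among the 6 arrays labelled 4000B, which leave only the bright Tsc1 cKO mice 1 and 2, the log2 difference was -0.88 for miR-125b-1, -0.48 for miR-125b-2, -0.37 for miR-125b without a copy number, -0.42 for miR-99a, -0.47 for miR-100, -0.28 for miR-125a and 0.03 for miR-99b. For the precursors it was 0.05 for miR-125b-1, 0.09 for miR-125b-2, 0.43 for miR-125b without a copy number and 0.73 for miR-99b. The median of the 7 mature members was then -0.42, with 6 of 7 negative. Ctrl mice 3 and 4 have dim arrays, so these differences of deposited intensities mix brightness with genotype and the 2 cannot be told apart in them. Over array background, mature miR-99b stood at 0.83 and 1.10 in Tsc1 cKO mice 1 and 2, against 0.83 to 1.39 in Ctrl mice. The miR-125b-1 precursor stood at 2.03 and 1.87 in Tsc1 cKO mice 1 and 2, against 1.92 to 2.25 in Ctrl mice.

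**Figure D5:**
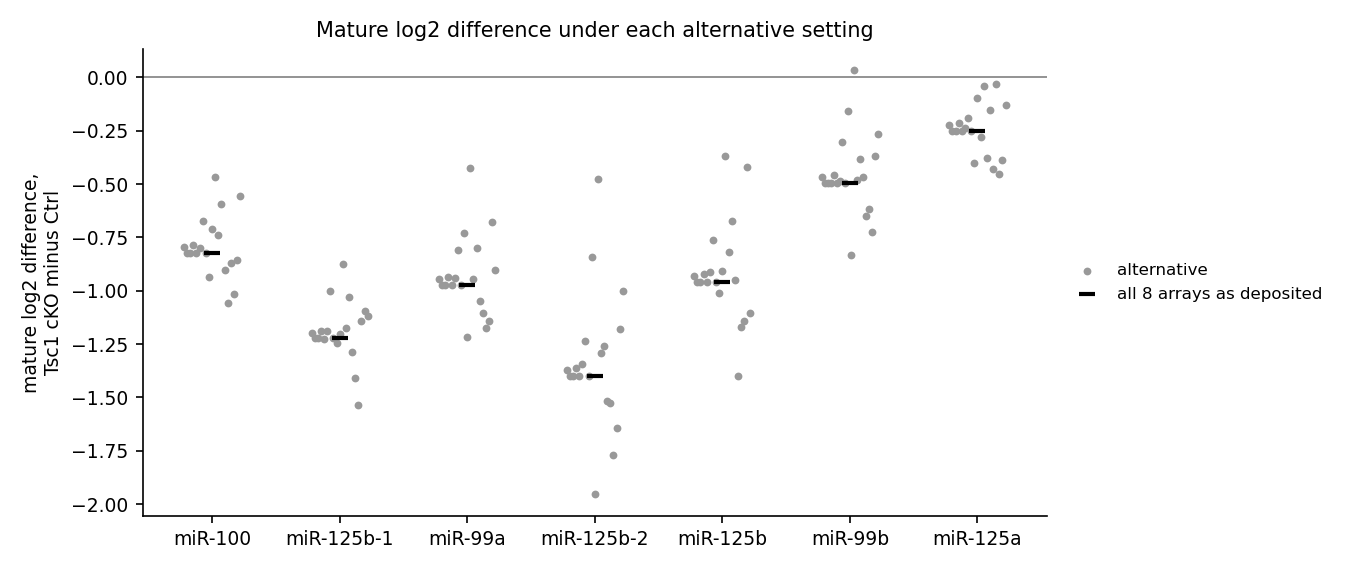
Mature log2 difference, Tsc1 cKO minus Ctrl (y axis), of each member with all 8 arrays as deposited (black bars) and under each alternative setting, including each mouse left out (grey points). Every point is negative but 1, miR-99b at 0.03 among arrays labelled 4000B, and no point passed the threshold in its own limma fit.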

How the data were processed

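Per the labels' protocols, 5 µg of total RNA per mouse was labelled by reverse transcription with a biotinylated random octamer, hybridised to a 1-colour array and read through streptavidin-Alexa647. The deposited values of the mature (521 probes) and precursor (300 probes) tables are linear intensity, called normalized by a template comment per the file headers; the sources used here do not give how the authors scaled them or treated background. A further table equalled the mature one in every cell and gave no further value.

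Values were taken as log2(value + 1), with probes of 1 name averaged. limma 3.58.1 in R 4.3.3 (lmFit, eBayes, 2-sided, Benjamini-Hochberg threshold 0.05) was fitted over each whole table and over the mature minus precursor differences of the 263 names in both. The background was a kernel density mode. Probe pairs were compared by exact permutation over 70 assignments. The limma fits of the mature and precursor tables were checked on simulated data. Replicates are separate mice per the labels, and precision is limited by the number of arrays. All member names are given, with the let-7 neighbours, list counts and the 5 most alike bright names. The members and lists were chosen with earlier results of these data known. Figures used matplotlib 3.10.9 in Python 3.11.15. Alternatives covered scaling, pseudocount, dim names, probe averaging, blocks, subsets and each mouse left out.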

Additional observations from a re-analysis of the deposited data

Results flagged for a closer look

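In 3 of the 22 groups of 4 arrays formed by the member probes, 1 array stood further from the rest than Dixon's test allows, where chance gives about 1 in 20. The mature probe of miR-125b without a copy number read 12.67 on the log2 scale in Tsc1 cKO 3, with the next Tsc1 cKO mouse at 14.72. The mature probe of miR-125b-1 stood at 15.50 in Tsc1 cKO 1, above the other Tsc1 cKO mice, of which the highest was at 14.32. The precursor probe of miR-99b stood at 12.61 in Ctrl 4, with the next Ctrl mouse at 14.80.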

How the results depend on the processing

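Under every alternative run, limma called 0 names in the mature, precursor and mature minus precursor fits. All 7 mature members kept a negative log2 difference in each alternative except for miR-99b among arrays labelled 4000B (0.032), where the member median moved to -0.42. Leaving out 1 mouse gave member medians of -1.17 to -0.67 (mature), -0.06 to 0.18 (precursor) and -1.34 to -0.97 (mature minus precursor). Signs turned for values near 0. The precursor difference was 0.049 for miR-125b-1 (arrays labelled 4000B), 0.088 and 0.034 for miR-125b-2 (arrays labelled 4000B, and mice 3-4 alone) and -0.031 for miR-125b without a copy number (mice 3-4 alone). With 1 mouse left out it ran from -0.13 to 0.031 for miR-125b-2 and from -0.023 to 0.83 for miR-99b. The mature copy difference of miR-125b was -0.41 in mice 1-2, 0.75 in mice 3-4, -0.40 among arrays labelled 4000B, and ran from -0.12 to 0.50 with 1 mouse left out, while that of the precursors ran from -0.17 to -0.06. The cause was not tested. With only names whose mean passed the bright level in at least 1 genotype, 1 mature member (miR-99b, by its Ctrl mean) and 1 precursor member (miR-125b-1) remained, so the copies had no value there, and mature minus precursor had none for single probes. As a replicate block the mouse number, which the labels do not tie to a shared litter or day, gave 0 calls and 48 mature names at unadjusted p under 0.05 against 19 without it (lowest adjusted p = 0.0581). Deviations of same-numbered mice correlated at 0.10, 0.35, 0.09 and 0.33 over mature names, and not every mouse matched its own number best. Signal close to background limits all 7 mature and 3 of the 4 precursor members.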
